A study of Mus musculus with 9 samples.

Results

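Mouse embryonic stem (ES) cells placed in differentiation medium with doxycycline were followed here over their last 3 days of sampling, D1.5, D2.5 and D3.5 of differentiation. The course was taken from the labels as the Dox+ arrays of those days, which makes 3 of the 9 arrays of the series, with 1 array for each day. For each gene the single-symbol probe set that was brightest over the 9 arrays was taken, and 8716 of the 18193 genes with such a probe set reached a signal of 50 on at least 2 arrays. These 8716 are called the measured genes. All cells carried a constitutively active form of PKA, the cyclic AMP-dependent protein kinase, under doxycycline control, and the labels do not state which of the media switched the kinase on. Undifferentiated cells were kept with leukaemia inhibitory factor (LIF) and doxycycline, and differentiation took place in medium with serum and no LIF, with doxycycline at 1 µg/ml (Dox+) or without it (Dox-). The remaining arrays were 1 of undifferentiated cells, 1 of Dox+ cells on D0.5 and 4 of Dox- cells on D0.5, D1.5, D2.5 and D3.5.

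Differentiating ES cells lose the naive state, pass through a stage that resembles the epiblast of the early embryo and then acquire genes of the primitive streak, where epiblast cells leave the epithelium and become mesoderm and endoderm. Nodal, Wnt, BMP and FGF signals drive the streak stage in the embryo. Nanog belongs to the pluripotency network and is also active in the posterior epiblast, Fgf5 is a growth factor gene of the epiblast, and Mixl1 encodes a homeobox protein of the primitive streak.

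These 3 genes placed the course. Nanog had signals of 828, 826 and 1887 on D1.5, D2.5 and D3.5, level over the first step and then 1.17 higher on the log2 scale by D3.5 than on D1.5. Fgf5 had signals of 419.6, 899 and 708, high on each day and highest on D2.5. Mixl1 had signals of 9.8, 15.7 and 302, low on both earlier days and high on D3.5 alone. Each array is a single measurement, so no difference between days carries a replicate error or a test, and every difference below is on the scale of log2(signal + 16), which understates the change of dim genes. A rise or a fall means a difference of at least 2-fold on that scale. The deposited signals are scaled to the same trimmed mean on every array. In such bulk samples, fewer cells of a type and less RNA per cell cannot be told apart.

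The arrays were alike in quality. Between 41.6% and 44.2% of genes reached a signal of 50 on each of the 9 arrays, and the 3′ to 5′ signal ratio of Actb was 1.90, 1.85 and 1.94 on D1.5, D2.5 and D3.5 in Dox+, within the range of 1.60 to 1.98 over all arrays. The median difference of the measured genes between D3.5 and D1.5 was 0.02. As a rough scale for the spread between arrays, Dox+ and Dox- cells on D0.5 differed at least 2-fold at 10 of 8716 genes (0.115%).

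**Figure D1:**
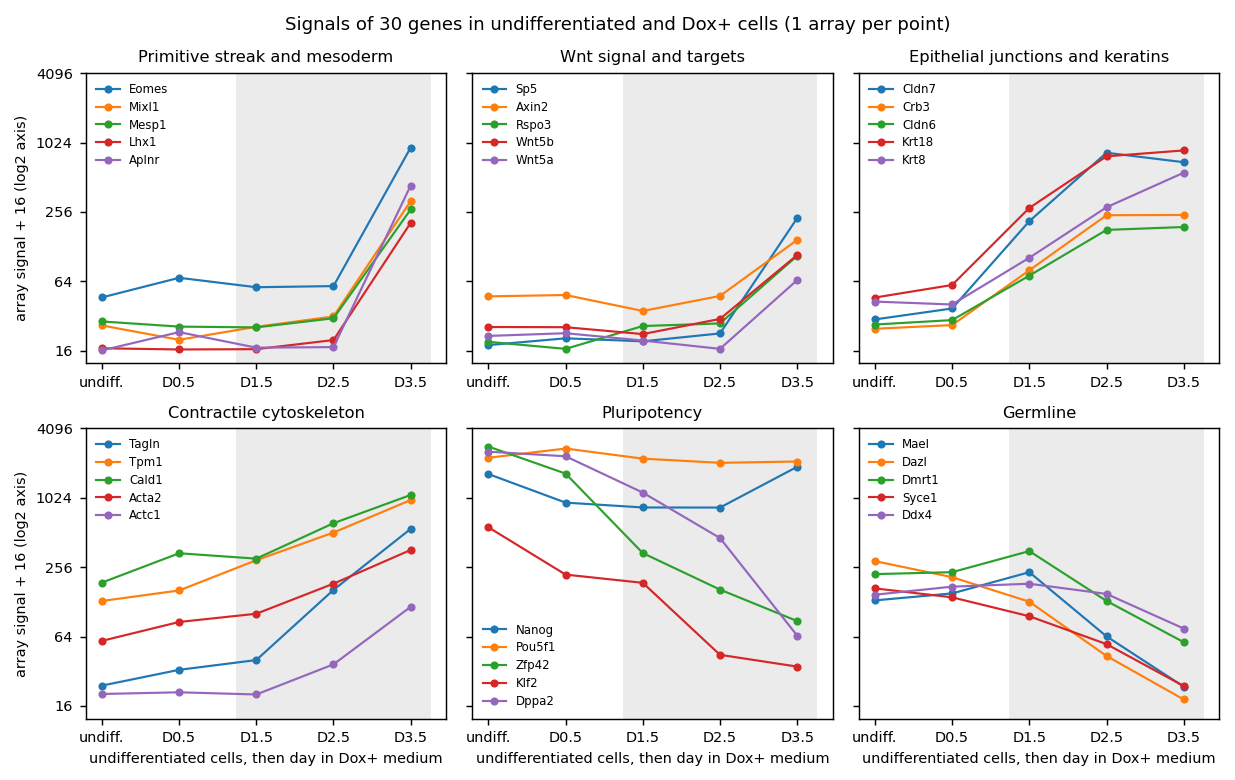
Array signal plus 16 (vertical, log2 axis) of 30 genes in 6 groups, in undifferentiated cells and on 4 days in Dox+ medium; each point is 1 array and the shading marks D1.5 to D3.5. Streak and Wnt genes stay low to D2.5 and are high on D3.5. The junction genes and Krt18 come near their D3.5 level on D2.5, while Krt8 rises over both steps. Contractile and germline genes change over both steps, though Ddx4 falls mostly in the second, and Pou5f1 stays level. Genes in the plot that lie outside the naming rule were chosen after their values were seen.

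Between D1.5 and D3.5, 266 of the 8716 measured genes rose (3.05%) and 223 fell (2.56%), 489 in all (5.61%). Over the first step, D2.5 against D1.5, 67 genes rose (0.769%) and 91 fell (1.04%), and over the second step, D3.5 against D2.5, 115 rose (1.32%) and 67 fell (0.769%). The first step thus held more falls than rises and the second more rises than falls. Over every gene with a probe set, 305 of 18193 rose (1.68%) and 263 fell (1.45%) from D1.5 to D3.5. Of the 266 rises, 152 (57.1%) had a signal under 50 on D1.5, and of the 223 falls, 142 (63.7%) had a signal under 50 on D3.5.

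Timing was read from the share of the whole difference that was present on D2.5. A change was called late at a share of 0.25 or less, early at 0.75 or more and steady between these. Among the rises, 87 (32.7%) were late, 140 (52.6%) steady and 39 (14.7%) early, with a median share of 0.43. Among the falls, 29 (13.0%) were late, 151 (67.7%) steady and 43 (19.3%) early, with a median share of 0.53. The largest changes parted further: of the 41 rises of at least 4-fold, 23 were late (56.1%), and of the 46 falls of at least 4-fold, 0 were late and 41 were steady. At a threshold of 1.5-fold, the late share was 23.5% of 686 rises and 20.5% of 572 falls, closer to each other than at 2-fold or 4-fold.

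**Figure D2:**
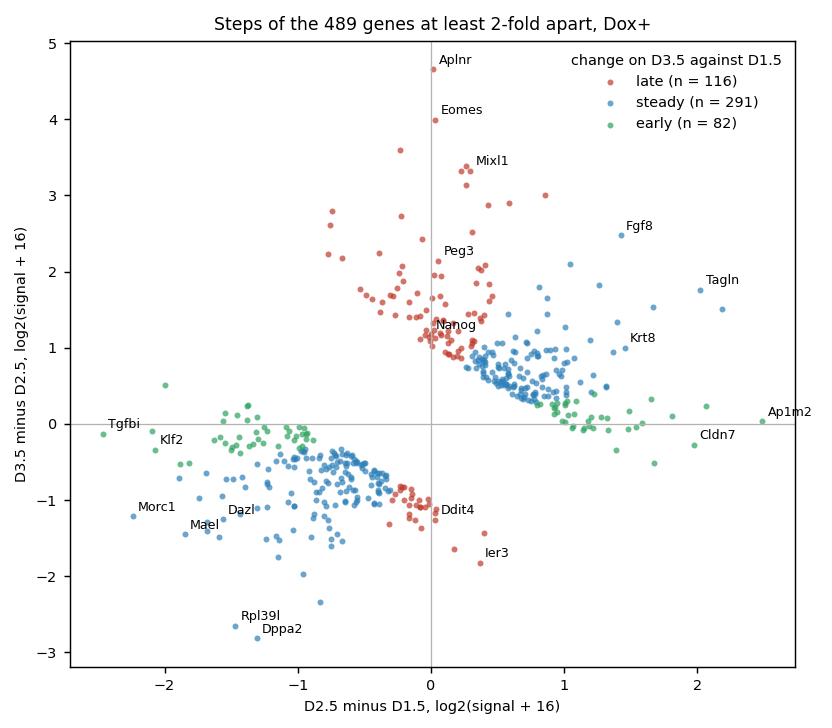
Difference of the first step (D2.5 minus D1.5, horizontal) against that of the second (D3.5 minus D2.5, vertical), both in log2(signal + 16), for the 489 genes at least 2-fold apart between D3.5 and D1.5 in Dox+; colours give the timing. The late rises line up along the vertical axis, led by Aplnr and Eomes, while most falls lie to the lower left where both steps contribute, led by Dppa2 and Rpl39l.

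The thresholds fell among closely spaced values, and the genes named here were picked for lying next to them. Castor2 at 1.00 was the last gene counted as a rise and Cdcp1 at 0.999 the first left out, and Insm1 at -1.003 and Cbr3 at -0.996 stood on the inside and the outside of the limit for falls. At the signal filter, Gatm had a second-highest signal of 50.0 and was kept, and R3hcc1l had 49.9 and was not.

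The 15 largest rises and the 15 largest falls differed in shape. Of the rises, 10 were late and 5 steady, and 14 had a signal under 50 on D1.5. Of the falls, all 15 were steady, and 12 had a signal under 50 on D3.5. Among the rises, Mme, which encodes the membrane peptidase neprilysin, had 23.5, 109.6 and 348 on D1.5, D2.5 and D3.5; its next brightest probe set differed by 0.52. Among the falls, Ooep, a gene for a protein of the oocyte's cortical complex, had 316, 94.3 and 23.3, and Bnc2, a zinc-finger gene, had 730.2, 216 and 78.7. Mageb16, a MAGE family gene, had 194, 46.7 and 15.8. All of these declined on each day.

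**Figure D3:**
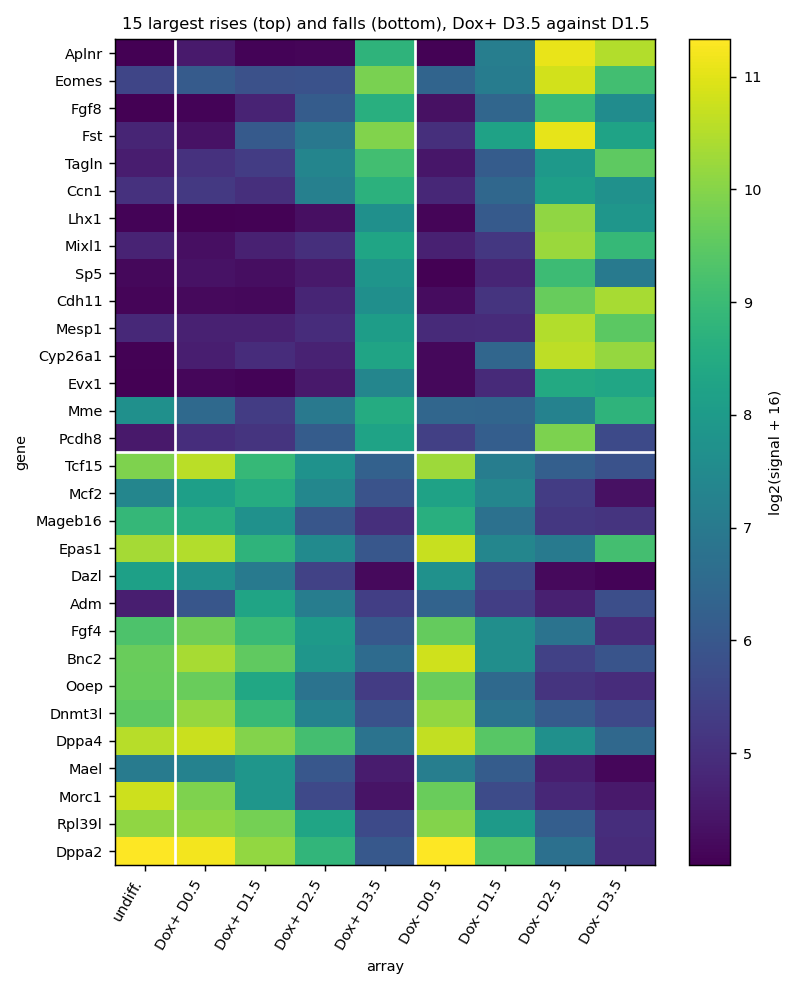
log2(signal + 16) of the 15 largest rises (above the white line) and the 15 largest falls (below it) between D1.5 and D3.5 in Dox+, on all 9 arrays, with 1 column for each array. In Dox+ cells most of the rises are dark until D3.5 and the falls fade day by day; in Dox- cells most of the rises are already bright on D2.5.

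Genes of the primitive streak and nascent mesoderm were low to D2.5 and high on D3.5. Of the 16 measured members of that list, 12 rose and 0 fell, and 11 of the 12 rises were late. Their median difference was 0.13 over the first step and 2.64 over the second, beside medians of 0.00 and 0.01 over all measured genes. The filter admits such genes because they are bright on some array, so the count over all 26 members with a probe set is given too: 13 rose and 0 fell, with a median of 0.94. The remaining 10 members were below the filter, and Wnt3, Wnt3a, Cdx1 and Msgn1 stayed under a signal of 10 on all 3 days; these genes were chosen after their values were seen.

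Aplnr, the apelin receptor gene of mesodermal cells, had signals of 1.0, 1.2 and 418 on D1.5, D2.5 and D3.5. Eomes, a T-box factor needed for mesoderm and endoderm to form, had 40.9, 42.2 and 911. Lhx1, a LIM homeobox gene of the anterior streak, had 0.5, 3.8 and 190.1. These genes were flat to D2.5 and rose in the second step, with whole differences of 4.67, 4.03 and 3.64. The next brightest probe set of Aplnr differed by 1.41. Mesp1, a basic helix-loop-helix factor gene of the earliest cardiac mesoderm, had 9.5, 14.6 and 253, and Evx1, a homeobox gene of the posterior streak, had 0.8, 6.6 and 149.7, with the same course. Fgf8, the fibroblast growth factor gene on which the movement of cells out of the streak depends, had 10.5, 55.1 and 379.7, and was the 1 rise of the list that was already under way on D2.5. Its differences were 1.42 over the first step and 2.48 over the second.

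Pdgfra, a growth factor receptor gene of mesoderm and primitive endoderm, had 17.5, 4.0 and 124, lower on D2.5 than on D1.5 and then 2.06 above D1.5. Its rise was not shared by the next brightest probe set, which differed by less than 2-fold. Foxa2, a forkhead gene of the anterior streak and endoderm, had 19.9, 13.5 and 78.6, and Gsc, a homeobox gene of the organiser that was below the filter, had 3.8, 0.4 and 41.0. These anterior genes were also highest on D3.5 alone. Nodal, the signal that induces the streak, had 549, 802 and 959.6, a difference of 0.79 that stayed under the threshold. Gsc and Nodal were chosen after their values were seen. In the list of definitive endoderm, which shares Foxa2, Lhx1 and Gata6 with other lists, 5 of 10 measured genes rose and 0 fell, with a median of 0.97. Of these 10 genes, 4 had passed the filter only through arrays outside the course. Over all 17 members with a probe set 6 rose and 0 fell, with a median of 0.65.

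Later derivatives of mesoderm were counted in 3 lists. In the list of lateral plate and heart mesoderm, 4 of 8 measured genes rose and all 4 were late. Of these 8 genes, 4 had passed the filter only through arrays outside the course. Over all 20 members with a probe set 4 rose and 0 fell, with a median of 0.19. Among the rises were Meis2, a homeobox cofactor gene, with 34.5, 27.5 and 167, and Gata6, a zinc-finger factor gene of heart and endoderm, with 9.8, 5.6 and 58.6. The other probe sets of Gata6 differed by less than 2-fold. In the list of vascular and blood precursors, 1 of 13 measured genes rose, Flt1, which encodes a VEGF receptor, with 8.0, 13.8 and 46.1; its other probe sets differed by less than 2-fold. Of these 13 genes 11 had passed the filter through arrays outside the course, and 22 of the 24 with a probe set stayed under 50 on all 3 days. Etv2, the ETS factor gene that starts blood vessel and blood formation, had 25.1, 36.2 and 55.2, below the threshold. Of the 21 Hox genes with a probe set, 0 passed the filter. In the paraxial mesoderm list of 7 measured genes, 2 rose and 2 fell: Pcdh8, a protocadherin gene of presomitic mesoderm, had 18.4, 54.9 and 287, while Tcf15, a basic helix-loop-helix factor gene of somites that is also active in the epiblast, had 467, 199.6 and 62.0. The second rise was of Rspo3, a gene for a Wnt-enhancing ligand, with 10.2, 11.6 and 90.5, but its next brightest probe set differed by 0.09. The second fall was of Dll1, a Notch ligand gene, with 202, 61.5 and 47.1, early.

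Wnt signalling genes rose over the second step as well. Of 21 measured members of the canonical Wnt list, 8 rose, all of them late, and 1 fell. Sp5, a zinc-finger gene that responds directly to Wnt, had 3.3, 6.6 and 211; Sp8, its relative, had 17.8, 25.8 and 223. Wnt5b, a ligand gene, had 6.3, 14.2 and 92.2. The target Axin2, a negative feedback gene of the pathway, had 19.4, 31.8 and 130.4 and the secreted inhibitor Dkk1 had 16.8, 3.4 and 103, both dim until D3.5. Lef1, which encodes a DNA-binding partner of beta-catenin, was the fall, with 759, 363 and 313, most of it present on D2.5. The transducer Ctnnb1 had 4538, 4356 and 4619 and did not cross the threshold. Axin2, Dkk1, Lef1 and Ctnnb1 were chosen after their values were seen.

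The 300-base promoter windows of RefSeq (build GRCm38.p6, 250 bases before to 50 after the annotated start) were searched on both strands for 9 motifs, of which those described were chosen after their shares were seen. One was a TCF/LEF motif, CTTTGAT. It was present for 4 of the 21 streak genes with a window, for 6 of 64 late rises (9.38%), for 8 of 113 steady falls (7.08%), for 2.97% of 7170 measured genes and for 4.29% of all 27025 genes with a window. Those 4 genes were Mesp1, Sp5, Foxa2 and Msgn1, of which Msgn1 was not measured. The window of Mesp1, at chr7:79793541-79793840 on the minus strand, is shown because it belongs to one of the largest late rises; capitals mark the motif, whose first base lies 31 bases before the start.
Mesp1: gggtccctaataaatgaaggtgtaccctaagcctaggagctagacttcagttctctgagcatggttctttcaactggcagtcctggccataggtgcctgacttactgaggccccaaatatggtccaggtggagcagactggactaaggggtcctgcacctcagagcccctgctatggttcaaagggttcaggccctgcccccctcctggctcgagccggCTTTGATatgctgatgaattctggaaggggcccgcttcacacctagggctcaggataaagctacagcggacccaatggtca
A match is a run of letters and not evidence that a factor binds there.

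BMP targets were among the rises. Of 16 measured genes of the BMP list 6 rose, 3 of them late and 3 steady, and 1 fell late. Id3, an inhibitor of basic helix-loop-helix factors and a direct BMP target, had 42.9, 103 and 271, and Id1, its relative, had 136, 241 and 467; both increased over both steps. Smad6, an inhibitory SMAD gene, had 24.5, 50.8 and 91.1. Id2, of the same family as Id1, was the fall, with 865, 768 and 357. The ligand Bmp2 had 3.1, 4.9 and 32.5 and rose late, and Bmp4 had 19.7, 13.7 and 27.9, under 50 throughout. Id2, Bmp2 and Bmp4 were chosen after their values were seen.

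Nodal pathway genes were mostly level. Of 21 measured members 2 rose and 1 fell. Fst, which encodes the activin-binding protein follistatin, had 51.9, 107 and 973, a late rise of 3.87. Cfc1, a Nodal co-receptor gene, had 13.1, 26.1 and 47.6, and Gdf3, a ligand of the same family, had 639, 482 and 253 and fell steadily. The Nodal inhibitor Lefty1 had 1007, 1278 and 829.5, highest on D2.5. In the FGF list of 20 measured genes, Fgf4, the growth factor gene of the inner cell mass and epiblast, had 483, 241 and 49.7, a difference of -2.93, beside the rise of Fgf8. The ERK target Egr1 had 171, 93.0 and 495, lower on D2.5 and higher on D3.5. Ier3, an immediate early gene, had 205, 269 and 64.6 and fell late.

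**Figure D4:**
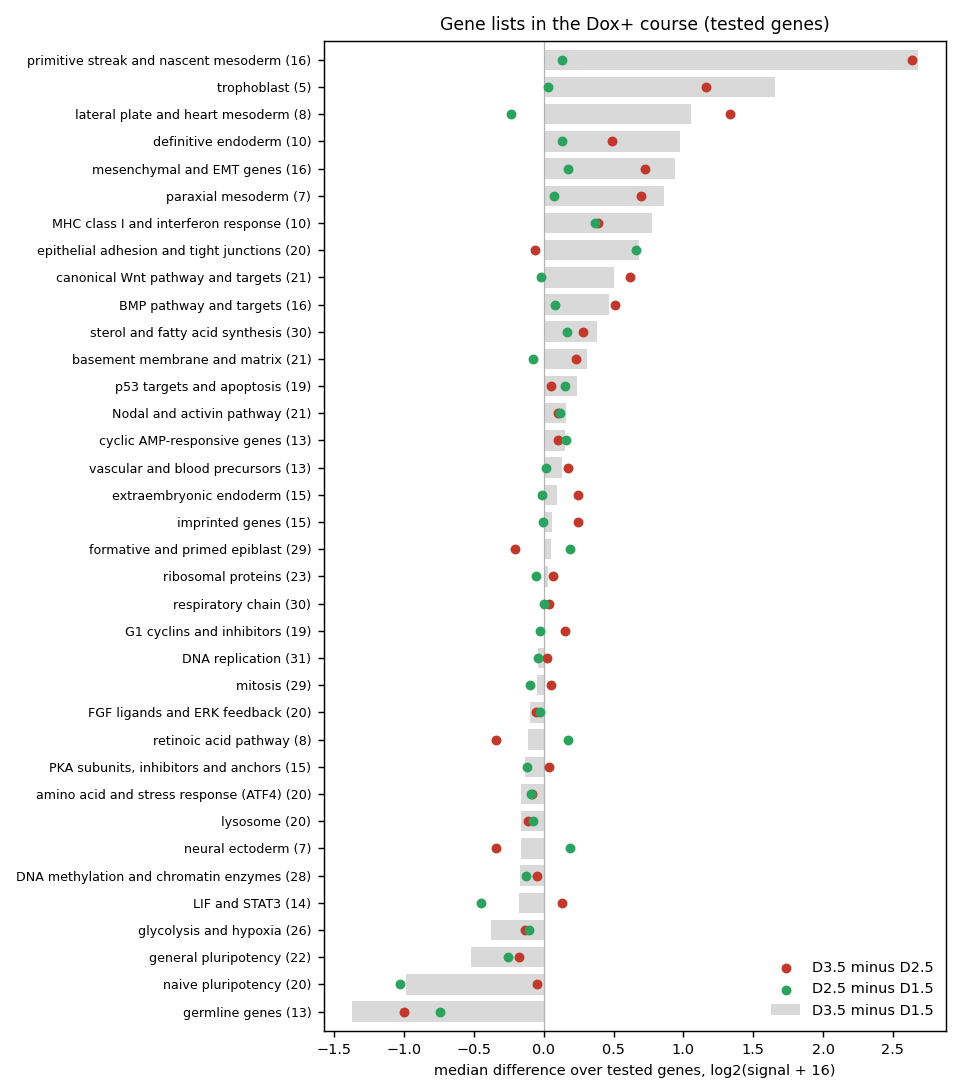
Median difference over the measured members of 36 gene lists in Dox+ (horizontal, log2(signal + 16); the number of members follows each name): bars give D3.5 minus D1.5 and points the 2 steps. The streak list lies far to the right with all of its difference in the second step, the junction and naive lists owe theirs to the first, and the germline list lies furthest to the left with both steps contributing; lists with fewer than 5 measured genes are not drawn.

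In the naive pluripotency list, falls came mainly before D2.5. Of 20 measured members 10 fell, 6 early and 4 steady, and the only rise was the late one of Nanog. The list's median difference was -1.03 over the first step and -0.05 over the second. The cells had already lost most of this signal: the summed signal of the 23 members with a probe set was 17637 in undifferentiated cells and 8339 on D0.5, and then 2585, 1420 and 2385 on D1.5, D2.5 and D3.5, of which Nanog alone made up 828, 826 and 1887.

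Klf2, a Krüppel-like factor gene of the naive network, had 171, 28.4 and 19.1 on D1.5, D2.5 and D3.5, most of its fall present on D2.5. Nr5a2, a nuclear receptor gene, had 101, 20.1 and 7.1, and Nr0b1, another, had 142, 68.3 and 14.1, a steadier decline. Zfp42, the classical marker Rex1, had 323, 148 and 71.2 and declined over both steps, with a whole difference of -1.96. Klf4 had 110.3, 30.1 and 34.0, an early fall to which its second probe set gave only -0.73, and Esrrb, an orphan nuclear receptor gene, had 56.3, 8.7 and 4.7, early. Genes of the LIF pathway, which maintains the naive state, followed in part: 4 of 14 measured members fell, among them the receptor gene Lifr with 239.7, 92.6 and 85.3 and the adaptor Gab1 with 818, 505 and 301. Esrrb and Lifr were chosen after their values were seen. With the next brightest probe set of each gene, the median difference of the naive list was -0.15.

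The list of genes shared by naive and primed pluripotent cells held steady falls. Of 22 measured members 6 fell, all 6 steadily, and 0 rose, with a median of -0.52. Pou5f1, which encodes Oct4, had 2223, 2043 and 2099, a difference of -0.08. Sox2, its partner, had 1906, 1508 and 909, a difference of -1.05 just past the threshold. Dppa2, which encodes a DNA-binding protein of pluripotent and germ cells, had 1120.1, 442 and 49.2, and was at -4.12 the largest fall among all measured genes. Dppa4, its binding partner, had 983, 545 and 95.2, and Dppa5a had 6069.9, 3719 and 1349, parallel courses. Dppa4, Dppa2 and Morc1, a gene for a protein that silences transposons in male germ cells, are consecutive genes of chromosome 16, and Morc1 had 216, 33.0 and 5.1. Each of these neighbours fell by more than 4-fold.

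Among the falls, an octamer motif, ATGCAAAT on either strand, was present in the promoter window of 10 of 113 steady falls (8.85%), against 1.49% of the measured genes and 1.97% of all genes with a window. It was present for 12 of all 168 falls with a window (7.14%), for 8 of 200 rises (4.0%) and for 4 of 64 late rises (6.25%). The window of Zfp42, at chr8:43306960-43307259 on the minus strand, is shown as the pluripotency marker among the steady falls, with the motif in capitals at 186 bases before the start.
Zfp42: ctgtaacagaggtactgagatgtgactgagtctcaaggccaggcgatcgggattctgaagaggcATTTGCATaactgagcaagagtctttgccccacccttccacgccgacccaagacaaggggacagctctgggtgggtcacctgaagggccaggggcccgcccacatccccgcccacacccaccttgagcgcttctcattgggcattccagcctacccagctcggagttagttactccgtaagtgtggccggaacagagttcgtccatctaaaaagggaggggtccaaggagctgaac
The motif was read there on the opposite strand to the gene.

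The epiblast list had a median near 0. Of 29 measured members of the formative and primed list 4 rose and 4 fell, and the median was 0.05. Otx2, a homeobox gene of the epiblast and anterior embryo, had 1116, 1446 and 1175, and Dnmt3b, which encodes a de novo DNA methyltransferase, had 5051, 4245 and 4518, both level. Dnmt3a, the second such enzyme, had 1297, 781 and 365, and Dnmt3l, their catalytically inactive cofactor, had 478, 138 and 41.9. The differences were -3.09 for the cofactor and -1.78 for this enzyme, both steady, beside -0.16 for Dnmt3b. Pou3f1, a POU factor gene of the epiblast and neural plate, had 1379, 1225 and 512, a late fall. Over the 28 measured genes of the DNA methylation and chromatin list, 4 fell and 0 rose, all steadily: Dnmt3a, Dnmt3l, Tet2, which encodes a 5-methylcytosine oxidase, with 129.9, 59.7 and 44.2, and Kdm4c, a gene for a histone lysine demethylase, with 508, 321 and 167. Pou3f1 and Tet2 were chosen after their values were seen.

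Germline genes were mostly lower on D3.5. Several of them are active in pluripotent cells and are silenced by promoter methylation in the embryo after implantation. Of 13 measured members 10 fell, 8 steadily and 2 late, and 1 rose, with a median difference of -1.37 that was split into -0.74 for the first step and -0.998 for the second. Over all 24 members the median was -0.63. Mael, a gene of the piRNA pathway, had 216, 48.2 and 7.5. Dazl, an RNA-binding protein gene of germ cells, had 112, 27.4 and 2.2, and Dmrt1, a factor gene of the testis, had 337, 114 and 41.2. These genes declined on each day, with whole differences of -3.30, -2.82 and -2.63. Ddx4, the Vasa helicase gene, had 168, 134 and 59.1 and fell late. Tfap2c, an AP-2 factor gene shared by germ cells and trophoblast, had 10.7, 9.9 and 41.9 and was the rise; Ddx4 and Tfap2c were chosen after their values were seen. The testis-enriched ribosomal protein paralogue Rpl39l had 869, 303 and 34.8, a difference of -4.12, whereas the other 22 measured ribosomal protein genes stayed within 2-fold. Stra8, a gene of meiotic entry in the retinoic acid list, had 40.8, 14.2 and 2.3, a steady fall.

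A motif described after its share was seen was frequent in the promoter windows of this list. The list and the motifs were chosen with earlier results of these data known. The E-box CACGTG, which reads the same on both strands, was present in 11 of 19 germline windows (57.9%), against 12.8% of the measured genes and 8.09% of all genes with a window. It was present for 5 of the 9 falling germline genes with a window and for 6 of the other 10, so the falling and the other members held it at similar rates. Among all falls with a window 27 of 168 held it (16.1%), and among all rises 17 of 200 (8.5%). Mael (chr1:166238695-166238994, minus strand), Slc25a31, a gene for a sperm ADP/ATP carrier (chr3:40708621-40708920, plus strand), and Ddx4 (chr13:112652261-112652560, minus strand) are shown as falls that hold it, with the E-box in capitals at 223, 93 and 29 bases before the start.
Mael: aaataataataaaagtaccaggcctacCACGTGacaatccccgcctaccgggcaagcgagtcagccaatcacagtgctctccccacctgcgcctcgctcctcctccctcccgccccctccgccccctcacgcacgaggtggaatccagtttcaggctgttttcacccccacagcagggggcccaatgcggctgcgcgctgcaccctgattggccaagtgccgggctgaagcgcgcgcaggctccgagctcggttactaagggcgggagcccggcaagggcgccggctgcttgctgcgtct
Slc25a31: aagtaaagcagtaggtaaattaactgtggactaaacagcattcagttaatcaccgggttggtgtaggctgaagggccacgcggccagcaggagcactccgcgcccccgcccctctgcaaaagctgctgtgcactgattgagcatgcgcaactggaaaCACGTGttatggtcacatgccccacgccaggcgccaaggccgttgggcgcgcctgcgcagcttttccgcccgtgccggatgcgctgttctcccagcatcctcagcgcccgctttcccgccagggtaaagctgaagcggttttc
Ddx4: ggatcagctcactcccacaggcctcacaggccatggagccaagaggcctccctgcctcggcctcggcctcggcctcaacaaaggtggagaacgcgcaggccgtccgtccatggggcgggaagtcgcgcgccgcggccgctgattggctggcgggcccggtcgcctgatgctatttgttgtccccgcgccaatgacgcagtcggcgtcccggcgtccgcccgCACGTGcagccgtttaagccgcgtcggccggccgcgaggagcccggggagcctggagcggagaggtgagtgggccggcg
Slc25a31 had signals of 57.0, 24.1 and 4.0 and fell steadily. It was chosen after its values were seen.

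In the epithelial adhesion list, rises were early or steady and none was late. Of 20 measured members of the list 8 rose, 4 early and 4 steady, and 0 fell. The median was 0.66 over the first step and -0.06 over the second. Cldn7, which encodes a claudin of tight junctions, had 197, 820.0 and 676. Crb3, an apical polarity gene, had 63.8, 224 and 225, and Cldn6 had 55.7, 163 and 174. These genes were about as high on D2.5 as on D3.5. Ap1m2, an adaptor gene for sorting to the basolateral membrane of epithelia, had 28.4, 234 and 240.2, the same shape with a difference of 2.53. The adhesion gene Cdh1, which encodes E-cadherin, had 2171, 2560.1 and 2007, a difference of -0.11. Ap1m2 is not in the list, and all of these genes were chosen after their values were seen.

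The other rises of the list were desmosome and keratin genes. Dsp, the desmoplakin gene, had 107, 175 and 405 and Dsg2, a desmosomal cadherin gene, had 135, 361 and 511. Krt8 had 86.5, 265 and 545 and its dimer partner Krt18 had 261, 762 and 859.8, genes of simple epithelia that are neighbours on chromosome 15. Krt19 had 23.7, 56.3 and 98.0, increasing on each day; Krt18 was an early rise and the others were steady.

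Genes of the mesenchymal list moved both ways. Of 16 measured members 8 rose, 6 steadily and 2 late, and 2 fell early. Tagln, which encodes the actin-binding protein transgelin, had 24.0, 147 and 534. Cald1, the caldesmon gene, had 288, 600.1 and 1067, and the tropomyosin gene Tpm1 had 278, 495 and 963. These contractile genes increased on each day, as did the smooth muscle actin gene Acta2 with 84.9, 168 and 345, whose other probe sets did not show the rise. Cdh11, a mesenchymal cadherin gene, had 2.0, 11 and 186, and Cdh2, which encodes N-cadherin, had 214, 249.8 and 499, both late. The next brightest probe set of Cdh11 differed by 1.18. The falls were of genes for repressors of E-cadherin: Zeb1 had 87.9, 23.9 and 25.5 and Snai2 had 54.1, 11.1 and 16.2. Snai1, the member of that family used in the streak, was below the filter with 3.8, 6.3 and 13.7. Ccn1, a matricellular gene responsive to serum and YAP, had 16.1, 130.4 and 401, a rise of 3.70. Cald1, Tpm1, Cdh2, Zeb1, Snai2 and Snai1 were chosen after their values were seen.

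Of 26 measured members of the glycolysis and hypoxia list 4 fell and 0 rose, beside 2.56% of all measured genes that fell. Adm, which encodes the peptide adrenomedullin, had 293, 123 and 25.4, Egln3, a prolyl hydroxylase gene of the oxygen sensor, had 816, 447 and 234, and Ddit4, an inhibitor gene of mTOR, had 2256, 2311 and 955, level to D2.5 and then lower. Pdk1, a kinase gene that restrains pyruvate entry into the citric acid cycle, was the remaining fall with 2114, 1610.1 and 928. Epas1, which encodes HIF-2 alpha and was not in the list, had 417, 167 and 48.4, a difference of -2.75, with -1.42 for its other probe set. Of the glycolytic enzymes, Ldha had 3684, 3982 and 4147 and Pgk1 had 4462, 4494 and 4445, and each changed by less than 2-fold. Ldha and Pgk1 were chosen after their values were seen.

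Several housekeeping lists held no call. Among measured genes of the respiratory chain (30), DNA replication (31), mitosis (29) and the lysosome (20), 0 rose and 0 fell. Over all measured genes 5.61% rose or fell. Of 19 genes of G1 control 3 rose and 1 fell. Cyclin D2, Ccnd2, had 57.6, 52.3 and 209, and the inhibitor gene Cdkn1a had 45.2, 55.7 and 127, both late, whereas the imprinted inhibitor Cdkn1c had 185, 84.8 and 64.9 and fell early. Of the 30 measured sterol and fatty acid genes 1 rose, Ebp, a sterol isomerase gene, with 73.3, 95.7 and 290.1, and the list's median was 0.38. Of the 10 measured MHC class I and interferon genes 3 rose steadily. Tapbp, a peptide-loading gene with 51.2, 101 and 201, and Psmb8, an immunoproteasome gene with 5.0, 19.9 and 53.5, were among them, while the next brightest probe set of either differed by less than 2-fold. The imprinted zinc-finger gene Peg3 had 356, 370.4 and 1688, late. The retinoic acid-degrading enzyme gene Cyp26a1 had 14.7, 10.1 and 299, late too.

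No gene of the kinase list crossed the threshold. Of 15 measured genes for PKA subunits, inhibitors and anchors 0 rose and 0 fell, beside 5.61% of all measured genes that rose or fell. At that share a list of this size may hold no call. Prkaca, the catalytic subunit gene, had 545, 538 and 618, a difference of 0.18; whether its probe set detects the transgene is not stated in the labels. Of 13 measured cyclic AMP-responsive genes 1 rose, Egr1, beside 3.05% of all measured genes that rose. Rgs2, a G protein regulator gene, had 22.0, 48.0 and 59.8, and Pde4b, a cyclic AMP phosphodiesterase gene, had 22.6, 44.1 and 56.8, which were the next largest differences at 0.996 and 0.92. The cyclic AMP response element TGACGTCA was present in the windows of 7 of 200 rises (3.5%) and 0 of 168 falls, beside 3.93% of the measured genes and 2.03% of all genes with a window.

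Markers of other cells were examined as whole lists. The 12 fibroblast genes had summed signals of 238, 280.2 and 258 on D1.5, D2.5 and D3.5. Of these, 10 stayed under 50 on all 3 days, with Col1a1 at 1.2, 7.4 and 7.3. Dcn, the decorin gene, was above 50 on each day, with 78.1, 95.9 and 62.8. It had 1.4 in undifferentiated cells and 6.4 on D0.5 in Dox+. The 13 trophoblast genes had sums of 474, 1148 and 2460.2, and all 5 that were measured rose. Of these 5, 2 had passed the filter only through arrays outside the course. Over all 13 members 5 rose and 1 fell, which was Ascl2, below the filter, at -1.31. The 5 measured genes, Eomes, Cdx2, Krt8, Krt18 and Tfap2c, also stand in other lists. Of the 13, 10 stayed under 50, among them the trophoblast markers Elf5 with 0.3, 1.9 and 3.3 and Tpbpa with 4.6, 5.1 and 5.0. The 22 extraembryonic endoderm genes had sums of 2098, 2405 and 2628, and 4 of 15 measured rose: Pdgfra, Gata6, Foxa2 and Sparc, by 2.06, 1.53, 1.40 and 1.10. The endoderm markers Afp, with 0.4, 2.7 and 3.6, and Ttr, with 5.4, 8.0 and 7.3, stayed near 0. The 19 neural genes had sums of 842, 892 and 733, with Sox1 at 114, 71.2 and 25.5 falling and Nes at 34.8, 79.3 and 97.8 rising; the other probe set of Sox1 differed by -0.17. The 6 two-cell-like markers had sums of 883, 863 and 792, of which Eif1a, a translation factor gene, alone made up 839.5, 821.6 and 771.7. The other 5 stayed under 50 on all 3 days. Apart from Dcn and Eif1a, the markers named here were picked as defining ones after their values were seen. The part of such cells in the results was not tested.

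The course began from different levels than the days before it. From D0.5 to D1.5 in Dox+, 377 of 8716 genes rose (4.33%) and 206 fell (2.36%). Of the 223 falls between D1.5 and D3.5, 58 (26.0%) had already fallen from D0.5 to D1.5, and 26 had risen. Adm was such a case, with 8.8 in undifferentiated cells and 47.0 on D0.5, before its maximum of 293 on D1.5. Fgf5 had 419.6 on D1.5, against 23.7 on D0.5. Of the 266 rises, 47 had also risen before D1.5 and 11 had fallen.

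Beside the same days in Dox- medium, the Dox+ course held fewer changes. In Dox- cells 502 of 8716 genes rose (5.76%) and 486 fell (5.58%) from D1.5 to D3.5. The genes in common that rose numbered 134, which is 50.4% of the Dox+ rises and 26.7% of the Dox- rises, and 95 fell in both, 42.6% of the Dox+ falls and 19.5% of the Dox- falls. Opposite changes of at least 2-fold were seen at 31 genes that rose in Dox+ and fell in Dox-, 11.7% of the Dox+ rises. Another 20 genes fell in Dox+ and rose in Dox-, 8.97% of the Dox+ falls. With 1 array for each day and medium, no difference between the courses was tested.

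**Figure D5:**
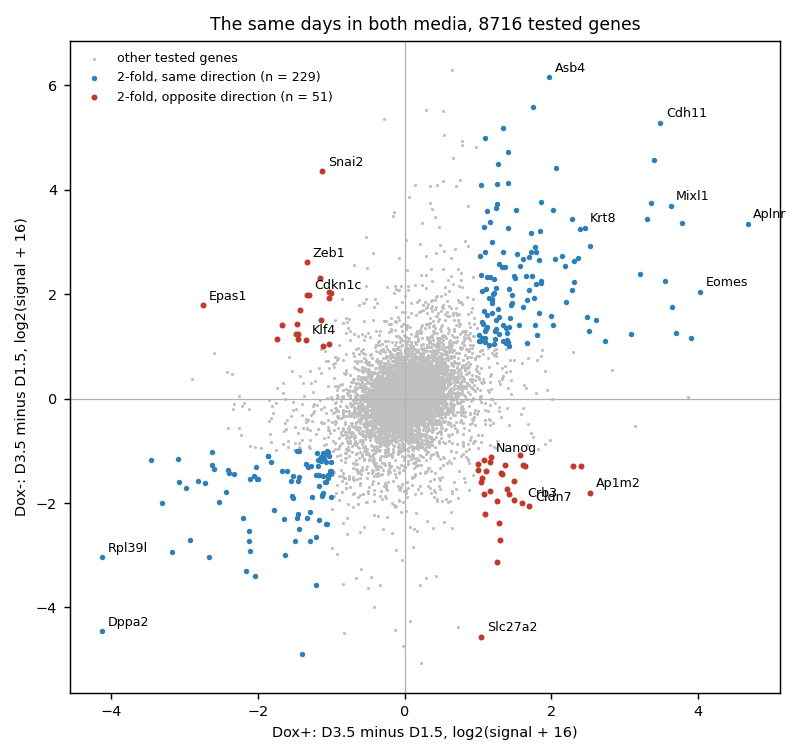
Difference between D3.5 and D1.5 in Dox+ (horizontal) and Dox- (vertical), both in log2(signal + 16), for the 8716 measured genes; blue points are at least 2-fold apart in the same direction in both media and red points in opposite directions. Aplnr, Mixl1, Eomes and Cdh11 lie high in both, Cldn7, Crb3, Ap1m2 and Nanog lie high in Dox+ and low in Dox-, and Epas1, Zeb1, Snai2 and Klf4 lie the other way.

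The streak genes were set beside their Dox- signals. Since they were chosen for a rise to D3.5, the last day sampled, a later maximum in Dox+ could not be seen. The 12 that rose in Dox+ all had a D3.5 signal in Dox+ between those of Dox- cells on D1.5 and D2.5, and 10 of the 12 were brightest on D2.5 in Dox-, all but Cdx2 and Nkx1-2. Mixl1 had signals of 9.8, 15.7 and 302 in Dox+, against 21.0, 1177 and 465 in Dox- on D1.5, D2.5 and D3.5. Eomes had 40.9, 42.2 and 911 in Dox+, against 118, 1808 and 540.3 in Dox-, and Mesp1 had 9.5, 14.6 and 253 in Dox+, against 13.8, 1432 and 696 in Dox-. For 9 of the 12, the Dox+ signal on D3.5 was at least 2-fold below the Dox- signal on D2.5. Over all 87 late rises, 74 had a D3.5 signal in Dox+ between those of Dox- on D1.5 and D2.5 (85.1%), and over all 266 rises 145 did (54.5%). Genes under 50 in Dox+ on D1.5 and D2.5 passed the filter only through an array outside the course. This can favour genes that are bright in Dox-, and so a Dox+ signal on D3.5 that lies below that of Dox- on D2.5. With a signal of 50 required on at least 1 Dox+ array of the course, 29.2% of 250 rises were late, against 32.7% of 266. The counts of Dox+ signals beside those of Dox- were not redone with that filter.

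Of the 10 naive genes that fell in Dox+, 8 were at least 2-fold higher in Dox+ than in Dox- on D1.5, beside 93 of all 223 falls (41.7%). These genes were chosen for falling from D1.5 in Dox+, which favours a high signal on that array. Klf2 had 171, 28.4 and 19.1 in Dox+, against 16.9, 25.9 and 31 in Dox-, and Fbxo15 had 173, 28.2 and 25.4 in Dox+, against 23.2, 58.0 and 20.8 in Dox-. In Dox- the signals of Klf2 and Fbxo15 were at most 58.0 on each of the 3 days. Others of the 10 were higher there: Zfp42 had 136.3, 80.3 and 63.1 in Dox-, and Klf4 had 55.3, 71.0 and 139.6. Of the 20 measured naive genes, 5 rose and 2 fell in Dox- from D1.5 to D3.5. Fbxo15, an F-box gene of ES cells, was chosen after its values were seen. Of the 15 largest falls, 13 were at least 2-fold lower over these days in Dox- as well, all but Adm and Epas1.

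The junction genes kept another course in Dox-. Cldn7 had 197, 820.0 and 676 in Dox+, against 599, 248 and 131 in Dox-, and Crb3 had 63.8, 224 and 225 in Dox+, against 139, 41.3 and 22.9 in Dox-. The list's median difference from D1.5 to D3.5 was 0.68 in Dox+ and -1.24 in Dox-. Cdh1 had 2171, 2560.1 and 2007 in Dox+, against 2004, 1208 and 254 in Dox-, lower on D3.5 in Dox- alone. As above, the genes of this paragraph other than Krt8 were chosen after their values were seen. Keratins rose in both media: Krt8 had 86.5, 265 and 545 in Dox+, against 254, 529 and 2609 in Dox-. Of the 31 genes that rose in Dox+ and fell in Dox-, 19 were early rises in Dox+ (61.3%), beside 39 of all 266 rises (14.7%). Zeb1 had 87.9, 23.9 and 25.5 in Dox+, against 25.6, 86.2 and 239 in Dox-, and Snai2 had 54.1, 11.1 and 16.2 in Dox+, against 4.9, 12.4 and 413 in Dox-.

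Epiblast genes stood apart between the media on D3.5. Fgf5 had 419.6, 899 and 708 in Dox+, against 755, 570.3 and 21.0 in Dox-. Otx2 had 1116, 1446 and 1175 in Dox+, against 1326, 671 and 53.8 in Dox-, and Pou5f1 had 2223, 2043 and 2099 in Dox+, against 2095, 1735 and 524 in Dox-. These 3 genes stayed high in Dox+ and were lowest on D3.5 in Dox-. The formative and primed list, which does not hold Pou5f1, had 29 measured genes. Of these, 4 rose and 4 fell in Dox+, with a median of 0.05, and 2 rose and 17 fell in Dox-, with a median of -1.315. Nanog had 828, 826 and 1887 in Dox+, against 685, 1324 and 306 in Dox-, high on D3.5 in Dox+ and on D2.5 in Dox-. The lateral plate list, with median differences between D3.5 and D1.5 of 0.19 in Dox+ and 2.33 in Dox- over its 20 members with a probe set, and the Hox genes, with summed signals of 133, 131 and 142 in Dox+ and 129, 233 and 2285 in Dox-, also differed between the media.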

How the data were processed

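RNA of mouse ES cells was measured on Affymetrix 3′ expression arrays of 45101 probe sets, 1 array for each of 9 conditions; groups came from the labels. The authors deposited linear intensity values per probe set made with GCOS, per the submitters' processing notes; the 2% trimmed mean is 100 on every array. Each probe set was named through the platform annotation, and symbols were updated by gene ID through RefSeq: 34945 had 1 symbol, 932 had several and were left out, 9224 had none, and 64 control probe sets were left out. The brightest probe set stood for a gene, for 9010 genes with more than 1, and levels were compared within a gene only. The signal minimum was 50 on 2 arrays and the pseudocount 16; differences are in log2(signal + 16).

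With 1 array per condition there was no test, and their number limits the precision. The script was checked on simulated data. Named genes were the 15 largest rises and falls, the 3 largest differences in each list, the largest D2.5 peaks and dips and 12 standing markers, of which T was not analysed here; others were chosen after their values were seen. The members, lists and motifs were chosen with earlier results of these data known. Promoter windows came from a RefSeq table; the motifs searched on both strands were CRE (TGACGTCA), T-box (GGTGTGA), TCF/LEF (CTTTGAT), octamer (ATGCAAAT), FOXH1 (AATCCACA), SMAD (GTCTAGAC), SRE (TCACCCCA), hypoxia (TACGTGC) and E-box (CACGTG), none of which contains another. A gene held a motif if any of its windows did. Alternatives covered the pseudocount, the filter, the choice of probe set, quantile normalization, centring, the fold and the limits of timing. Tools were Python 3.11.15 with pandas 2.3.3, numpy 2.4.6 and matplotlib 3.10.9.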

Additional observations from a re-analysis of the deposited data

Results flagged for a closer look

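Nanog, Klf4, Cdkn1c, Ier3, Egln3 and Epas1 moved at least 2-fold one way from D1.5 to D3.5 in Dox+ and at least 2-fold the other way in Dox-, with 1 array a day, so the differences were not tested. The differences on the log2(signal + 16) scale were 1.17 in Dox+ and -1.12 in Dox- for Nanog. For Klf4 they were -1.34 in Dox+ and 1.13 in Dox-, and for Cdkn1c -1.31 in Dox+ and 2.00 in Dox-. For Ier3 they were -1.46 in Dox+ and 1.25 in Dox-, for Egln3 -1.74 in Dox+ and 1.14 in Dox-, and for Epas1 -2.75 in Dox+ and 1.79 in Dox-. Over all measured genes, 31 rose in Dox+ and fell in Dox-, and 20 fell in Dox+ and rose in Dox-.

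Among the 31, 19 were early rises in Dox+, 10 steady and 2 late, beside 39 early, 140 steady and 87 late among all 266 rises. Slc27a2, which encodes a very long-chain acyl-CoA synthetase, had signals of 239, 653 and 511 in Dox+, against 624, 136 and 11.1 in Dox- on D1.5, D2.5 and D3.5. The neurofilament genes Nefl and Nefm, neighbours on chromosome 14, differed by 2.40 and 2.29 in Dox+, against -1.29 and -1.29 in Dox-. Among the 20, Lifr, the LIF receptor gene, had 239.7, 92.6 and 85.3 in Dox+, against 113, 184 and 491 in Dox-, and Vcan, a proteoglycan gene of mesenchyme, had 180.3, 82.7 and 79.8 in Dox+, against 147, 275 and 656 in Dox-. Slc27a2, Nefl, Nefm, Lifr and Vcan were chosen after their values were seen.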

How the results depend on the processing

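No named gene that was at least 2-fold apart changed sign under an alternative. With a pseudocount of 64 there were 105 rises and 91 falls, with the mean of a gene's probe sets 159 rises, with the next brightest probe set 85 rises and 62 falls, at 1.5-fold 686 and 572, at 4-fold 41 and 46, and with the mean of D0.5 and D1.5 as the start, an alternative chosen after seeing the data, 442 rises. All 266 rises and 223 falls kept their sign with pseudocounts of 1 and 64, the mean of probe sets and quantile normalization; with the next brightest probe set, 149 of 165 and 107 of 118 did. Late shares of the rises were 41.9% with a pseudocount of 64, 23.5% at 1.5-fold, 56.1% at 4-fold, and 20.7% and 46.2% with late limits of 0.1 and 0.4; those of the falls were 20.5% at 1.5-fold, 0 at 4-fold, and 6.73% and 31.8% with these limits. Genes peaking on D2.5 (2) numbered 0 with a pseudocount of 64 and at 4-fold, 1 with a signal minimum of 100 or the mean of probe sets, and 16 at 1.5-fold; dips (2) numbered 18 with a pseudocount of 1, 0 with 64, with the mean of probe sets and at 4-fold, 1 with the next brightest probe set and 20 at 1.5-fold. The causes were not tested. Of the 72 named genes with another probe set, 18 moved by over 0.58 with it. At least 1 other probe set was within 2-fold for Bnc2, Ccnd2, Dnmt3a, Dsg2, Dsp, Fgf4, Gab1, Grb10, Nes, Nr5a2, Peg3 and Sparc. With the next brightest probe sets the streak list's median was 1.00. Signals near background limit the differences of genes under 50. No paired analysis was possible because each condition has 1 array and the labels give no replicate numbers; a fit of media paired by day was not run.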

Other observations

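Few genes turned back on D2.5. Nlgn2, a synaptic adhesion gene, had 32.6, 95.6 and 28.5 on D1.5, D2.5 and D3.5 in Dox+, and Syt11, a synaptotagmin gene, had 89.4, 204 and 83.1, at least 2-fold higher on D2.5 than on both other days. Fn1, the fibronectin gene, had 638, 302 and 859.7, and Tbx3, a T-box gene of the naive state and later of mesoderm, had 74.8, 11.3 and 58.6, at least 2-fold lower on D2.5. None of the 4 differed 2-fold between D3.5 and D1.5.

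Some changes lay side by side in the genome. Of 4356 pairs of adjacent genes with both measured, 15 pairs fell together, 11 rose together and 4 moved oppositely. Over all 8716 measured genes, 223 fell (2.56%) and 266 rose (3.05%). The pairs that fell together held 27 genes and those that rose together 22. Whether such pairs were more frequent than among randomly paired genes was not tested. Besides the Dppa4, Dppa2 and Morc1 run, the falls held Dppa5a, Ooep and Ddx43 on chromosome 9, with differences of -2.16, -3.08 and -2.11, and Ddc, Grb10 and Cobl on chromosome 11, with -1.24, -2.13 and -1.17. The other probe sets of Grb10 gave -0.71 and -0.46. The metallothionein genes Mt2 and Mt1 on chromosome 8 differed by -2.03 and -1.62. Among the rises were Ndn and Magel2, imprinted neighbours on chromosome 7, with 1.05 and 1.64, and the guanylate-binding protein genes Gbp2b and Gbp2 on chromosome 3, with 2.14 and 1.83, which are similar in sequence and may share probes. Aire and Dnmt3l on chromosome 10 differed by -1.65 and -3.09. The pairs named were chosen after their values were seen.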
